A study of Mus musculus with 5 samples.

Results

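The chromatin of 10 mouse genes of the Notch and E-protein programme of the thymus was examined in naïve CD8+ T cells that had, or lacked, the transcription factors Tcf1 and Lef1. The genes were *Notch1*, *Notch3*, *Rbpj*, *Hes1*, *Dtx1*, *Ptcra*, *Tcf3*, *Tcf12*, *Rag1* and *Rag2*. They were chosen by name, not by a measured value, though earlier results of these data were known. Every DNase-seq peak whose summit lay in the body of one of them or within 50 kb on either side was taken, on the mm9 genome. These were 43 of the 31116 peaks of WT cells and 33 of the 25525 peaks of dKO cells, so 76 of 56641 in all. The windows of *Rag1* and *Rag2* overlap and held the same sites, so the 10 genes form 9 loci.

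DNase-seq reads chromatin accessibility from the short fragments that DNase I cuts out of open chromatin. Both genotypes carried a *Rosa26* GFP reporter and *hCD2-Cre*, which deletes floxed genes chiefly after T cells have left the thymus. WT mice had intact *Tcf7* and *Lef1* genes (*Tcf7*+/+ *Lef1*+/+), and dKO mice had floxed alleles of both (*Tcf7* fl/fl *Lef1* fl/fl), *Tcf7* being the gene of Tcf1. The cells were sorted from spleen as GFP+ TCRβ+ CD8+ cells with high CD62L and low to intermediate CD44, in 3 WT and 2 dKO replicates, from mice of both sexes aged 6 to 12 weeks on the C57BL/6 background. The authors pooled the replicates of a genotype before they called peaks, so each genotype is represented by 1 list. From these lists no spread between replicates could be computed, and no test between genotypes was run here. The authors did run one, with edgeR on the reads of each replicate at the merged sites. Sites called WT-only or dKO-only below are those found in 1 list, not the differential sites of that test.

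Notch receptors are cleaved when a ligand binds them, and the freed intracellular domain enters the nucleus, where it joins the DNA-binding protein Rbpj and turns on targets such as *Hes1*, *Dtx1* and *Ptcra*. E proteins, among them the products of *Tcf3* (E2A) and *Tcf12* (HEB), bind E-box sequences as dimers and are restrained by Id proteins. In the thymus the Notch and E-protein pathways act together in early T cells, which rearrange their antigen receptor genes with the Rag1 and Rag2 recombinase and test the new β chain with the pre-TCR α chain that *Ptcra* encodes. Notch signalling, *Ptcra* and the *Rag* genes are then turned down as cells mature.

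A peak counted as a chromatin-accessible (ChrAcc) site when its fold enrichment over the local background was at least 4, p was under 1e-05 and q under 0.05. Of the peaks near the 10 genes, 40 WT and 33 dKO peaks met these criteria. The 3 that did not were all in the WT list: at 23.3 kb of *Dtx1* (fold enrichment 3.52), at 11.9 kb of *Ptcra* (3.73) and at -30.0 kb of *Rag1* (3.63). The weakest WT sites that met them were 1 near *Rag1* and *Rag2* (4.09) and 1 in *Tcf12* (4.17). Distances run from the transcription start site (TSS) of a gene to the summit, with a minus sign for upstream positions. The WT pool held 83923734 fragments and the dKO pool 62242963, a ratio of 0.742, so sites were compared by their percentile of fold enrichment among all ChrAcc sites of their own list (28472 WT and 24363 dKO sites), where 100 is the highest. Beside the percentile stands the pileup, which is the number of fragments of the pool over the summit. For a part of the sites that both lists had, the ratio of pileups scaled to the depth of each pool (dKO over WT) is also given. Its exact 95% interval covers counting error only. In a pool of cells, fewer cells with an open site and less opening per cell cannot be told apart.

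The 201 bp around the summits of 7 sites are printed here because the account of the loci turns on them. They are the highest-ranked site found in 1 list only at each of *Dtx1*, *Notch3*, *Rag1* and *Hes1*, the second WT-only site of *Dtx1*, and the pair of shared sites with the Tcf/Lef core. All are read from the mm9 genome, 5′ to 3′, on the strand of the gene, which is the minus strand except at *Hes1*. The WT-only sites of *Dtx1* lie in intron 3 (chr5:121135767-121135967) and upstream of the gene (chr5:121164406-121164606), and the shared site lies in intron 2 (chr5:121147007-121147207). The WT-only site of *Notch3* lies in exon 24 (chr17:32280219-32280419), the WT-only site of *Rag1* lies upstream between genes (chr2:101505530-101505730), the dKO-only site of *Hes1* lies upstream between genes on the plus strand (chr16:30024796-30024996), and the shared site of *Tcf12* lies in intron 3 (chr9:71945005-71945205). Capitals mark matches, on either strand, to the 6 motifs searched: ATCAAAG (Tcf/Lef core), CAGCTG and CACCTG (E-boxes of E proteins), TGGGAA (Rbpj core), TGTGGT (Runx core) and CAGGAAG (Ets core). A match is a description of the letters, not of binding.
Dtx1 26.07 kb, intron 3, WT-only: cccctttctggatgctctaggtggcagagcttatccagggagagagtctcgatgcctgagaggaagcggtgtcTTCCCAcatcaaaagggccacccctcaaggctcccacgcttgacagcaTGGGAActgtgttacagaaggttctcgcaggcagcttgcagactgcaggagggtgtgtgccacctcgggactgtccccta
Dtx1 -2.57 kb, upstream, WT-only: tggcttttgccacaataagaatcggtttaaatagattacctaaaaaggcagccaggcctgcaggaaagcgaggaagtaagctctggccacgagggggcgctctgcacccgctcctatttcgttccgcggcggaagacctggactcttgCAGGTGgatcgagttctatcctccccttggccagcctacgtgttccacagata
Dtx1 14.83 kb, intron 2, shared: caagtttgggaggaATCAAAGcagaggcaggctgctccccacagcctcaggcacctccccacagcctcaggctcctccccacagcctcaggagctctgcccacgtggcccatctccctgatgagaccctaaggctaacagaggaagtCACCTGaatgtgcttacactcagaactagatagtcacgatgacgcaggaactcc
Notch3 23.51 kb, exon 24, WT-only: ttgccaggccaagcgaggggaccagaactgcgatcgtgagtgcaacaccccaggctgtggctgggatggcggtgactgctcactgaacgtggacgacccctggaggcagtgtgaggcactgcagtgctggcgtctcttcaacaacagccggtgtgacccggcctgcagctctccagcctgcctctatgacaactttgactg
Rag1 -15.97 kb, upstream, WT-only: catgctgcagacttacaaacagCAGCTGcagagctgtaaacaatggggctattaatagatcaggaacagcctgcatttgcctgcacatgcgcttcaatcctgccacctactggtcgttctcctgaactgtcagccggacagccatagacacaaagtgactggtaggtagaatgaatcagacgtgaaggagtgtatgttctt
Hes1 -40.53 kb, upstream, dKO-only: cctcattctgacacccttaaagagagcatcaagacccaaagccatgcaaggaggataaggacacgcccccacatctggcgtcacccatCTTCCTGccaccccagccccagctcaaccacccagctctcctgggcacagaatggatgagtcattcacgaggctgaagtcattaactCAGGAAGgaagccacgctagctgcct
Tcf12 14.52 kb, intron 3, shared: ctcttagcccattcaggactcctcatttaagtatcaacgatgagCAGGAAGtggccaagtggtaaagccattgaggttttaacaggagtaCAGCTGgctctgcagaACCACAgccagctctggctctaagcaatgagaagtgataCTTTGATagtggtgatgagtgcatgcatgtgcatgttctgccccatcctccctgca

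The strongest site near these genes that was found in 1 list only lay in *Dtx1*, in a stretch of intron 3 that was among the most accessible parts of the WT list and had no peak in the dKO list. *Dtx1*, *Notch3* and the *Rag1* upstream region each had a WT-only site at or above the middle of the WT list, and *Notch1* had WT-only sites of low rank at its own promoter. The windows of *Tcf3*, *Ptcra* and *Rbpj* kept every site in both lists, though all sites of the *Ptcra* window lay at promoters of neighbouring genes. *Hes1* was the reverse, with a pair of weak sites found in the dKO list only.

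Merging sites that overlapped by at least 1 bp gave 44 sites, of which 29 were shared, 11 were WT-only and 4 were dKO-only. The WT-only sites were 27.5% of the 40 WT sites (95% Wilson interval 16.1 to 42.8), where 27.6% of all WT sites had no overlapping dKO site. The dKO-only sites were 12.1% of the 33 dKO sites (4.82 to 27.3), where 14.4% of all dKO sites had no overlapping WT site. The shares near the 10 genes were thus close to those of the whole lists. Of the 11 WT-only sites, 9 would still have met the criteria on fold enrichment and p if the WT pool had been as shallow as the dKO pool, against 94.9% of all WT-only sites. The same 9 would have met them if their pileup were also lowered to the median ratio of shared sites, against 83.0% of all WT-only sites. None of the 11 overlapped a dKO peak of any strength. Of the 25525 dKO peaks 24363 met the criteria, so few weaker peaks were there to overlap. The share of all WT-only sites with such a peak was not computed, so this count has no background.

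**Figure D1:**
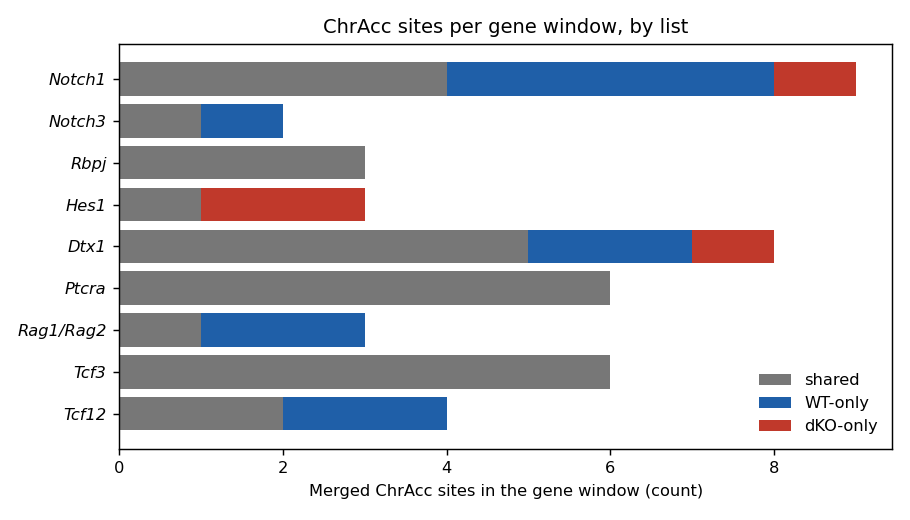
Number of merged ChrAcc sites (x axis) in the window of each gene (y axis), split into shared (grey), WT-only (blue) and dKO-only (red) sites. *Notch1* had 9 sites, 4 of them WT-only, *Tcf3* and *Ptcra* had 6 shared sites each, and *Hes1* had 1 shared and 2 dKO-only sites.

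**Figure D2:**
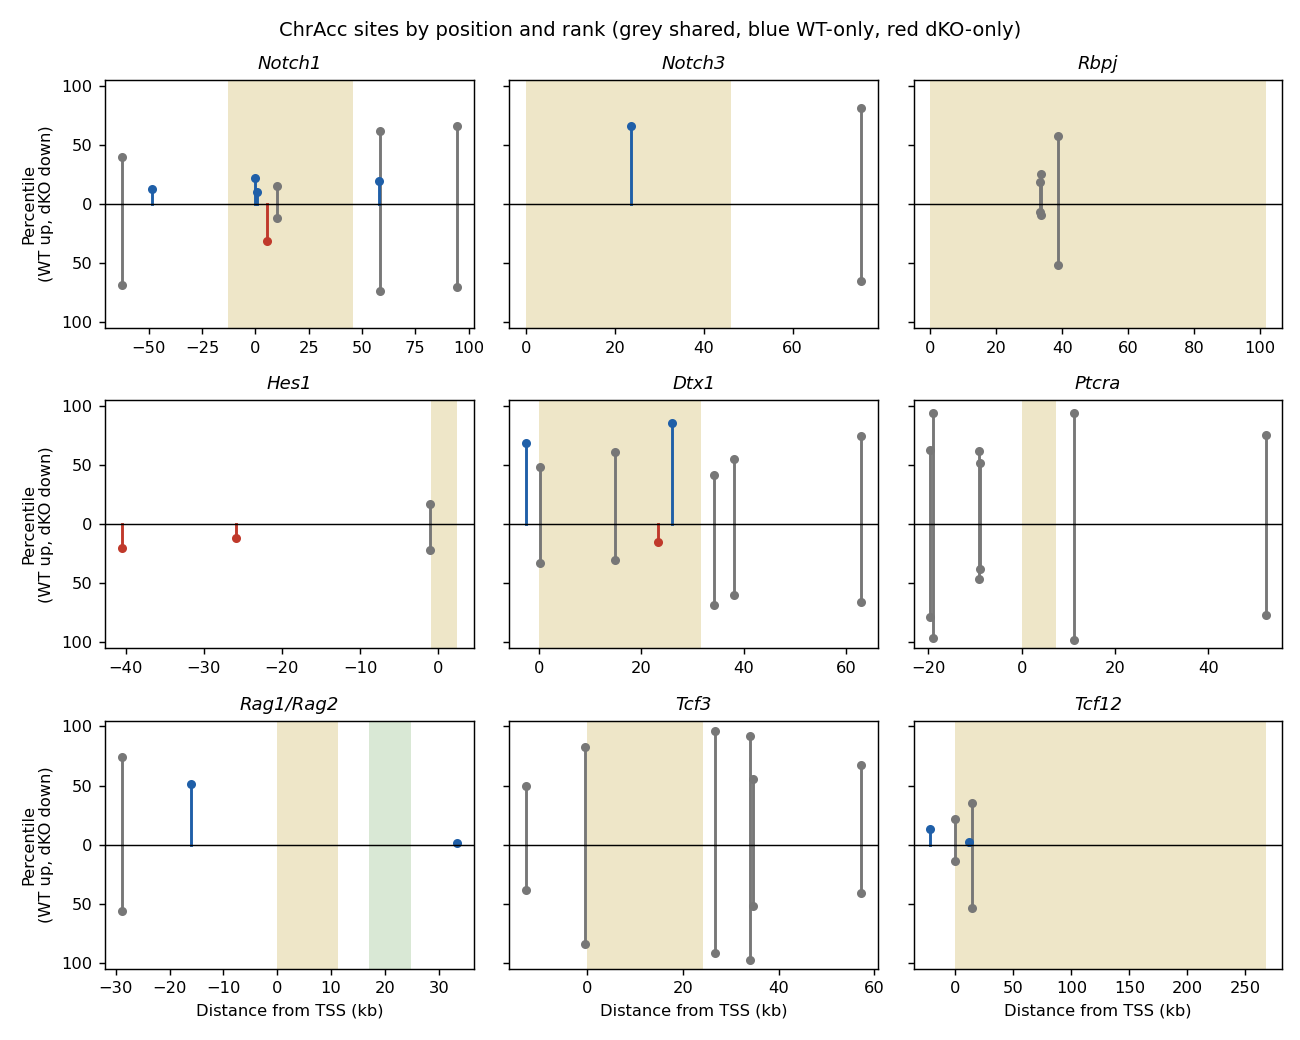
Position (x axis, kb from the TSS of the gene, minus for upstream) and percentile of fold enrichment (y axis, WT upwards and dKO downwards) of each site, 1 panel per locus, with the gene body shaded (in the *Rag1*/*Rag2* panel *Rag1* is beige, *Rag2* is green and distances run from *Rag1*). The tallest bar without a partner is the WT-only site at 26.07 kb of *Dtx1*, at percentile 85.7.

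*Notch1* encodes the receptor through which thymic ligands commit precursors to the T lineage. The gene (chr2:26313423-26372183, minus strand) had 8 sites in WT and 5 in dKO, with 4 shared. The WT list had 2 sites at its promoter, at 0.03 kb (chr2:26359260-26359521) with a pileup of 43 and at 0.73 kb (chr2:26358576-26358749) with a pileup of 40. The dKO list had none there, and since it holds called peaks only, the dKO pileup at these positions is not known. These promoter sites stood low in the WT list, at percentiles 21.9 and 10.4, and of the WT sites within 5 percentile points of them 48.6% and 57.2% had no dKO site. At the depth of the dKO pool their pileups would be 31.9 and 29.7, where 22.7 and 25.2 are needed for a fold enrichment of 4. The first of them had a GC content of 78.1%, the highest of the 40 WT sites, and the part of GC content in its absence from the dKO list was not tested.

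The other WT-only sites near *Notch1* lay at the promoter of the neighbour *Sec16a*, at 57.93 kb (chr2:26301353-26301489, pileup 67, percentile 19.0), and between genes at -48.42 kb (chr2:26407736-26407932, pileup 29, percentile 12.6). In the dKO list alone, a site was found in intron 2 at 5.47 kb (chr2:26353819-26353916), with a pileup of 36 and percentile 31.6. Of the dKO sites near that rank 17.1% had no WT site. This intron 2 site held a CAGCTG E-box and an Ets core. Among the shared sites, the highest in the WT list was at the promoter of *Inpp5e*, at 94.57 kb. It had pileups of 55 and 45, percentiles of 66.0 and 70.6 and a Runx core. The highest in the dKO list was the shared site at the *Sec16a* promoter, at 58.44 kb, with pileups of 120 and 85 and percentiles of 61.3 and 73.6. In *Notch1* itself, the site of intron 2 at 10.17 kb was weak in both lists (pileups 36 and 22, percentiles 15.2 and 12.4). The upstream site at -62.61 kb (WT chr2:26421784-26422002) went from percentile 39.5 in WT to 69.0 in dKO, with pileups of 40 and 44 and a ratio of 1.48 (0.944 to 2.34), so that the interval included 1. It lay 13.6 kb from the nearest TSS, that of *Egfl7*, and which gene it acts on was not tested.

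*Notch3*, a receptor that is expressed in thymocytes around the pre-TCR stage, had 2 WT sites and 1 dKO site in its window (gene body chr17:32257765-32303825, minus strand), and neither list had a site at its promoter. The WT-only site lay in exon 24 (chr17:32280225-32280379), with a pileup of 55, a fold enrichment of 10.4 and percentile 66.0. Among WT sites near that rank 13.4% had no dKO site. Its pileup would be 40.8 at the depth of the dKO pool, where 16.0 is needed. None of the 6 motifs was found within 100 bp of its summit. The shared site, 75.46 kb from the TSS and beyond the 3′ end of the gene, had pileups of 69 and 42 and went from percentile 80.7 to 65.3. Its ratio was 0.821 (0.546 to 1.22), and the interval included 1.

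*Rbpj*, the DNA-binding partner of the Notch intracellular domain, kept all 3 of its sites, and each ranked lower in dKO. They cluster in intron 1 of the longest transcript (gene body chr5:53947018-54048684, plus strand), near the starts of the shorter transcripts. The promoter site at 33.58 kb, 0.861 kb from the start of Rbpj-201 (WT chr5:53980479-53980716), had pileups of 63 and 35 and went from percentile 25.04 to 9.86. Its neighbour at 33.24 kb went from 18.3 to 6.87, with pileups of 55 and 32. The strongest, at 38.77 kb, went from 57.1 to 51.5, with pileups of 80 and 57. The depth-scaled ratios were 0.749, 0.784 and 0.961, and the intervals of all 3 included 1. The promoter site held the Rbpj core in both lists.

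*Hes1*, which encodes a transcriptional repressor and is a classic Notch target, had 1 WT site and 3 dKO sites (gene body chr16:30064470-30067882, plus strand). The shared site (WT chr16:30064366-30064473) lay 0.061 kb from the start of the transcript Hes1-004 and at -1.02 kb of Hes1-001. It was weak in both lists, with pileups of 36 in WT and 32 in dKO, percentiles of 17.4 and 21.7 and a ratio of 1.199 (0.721 to 1.99). The dKO-only sites lay between genes at -40.53 kb (chr16:30024839-30024959) and -25.86 kb (chr16:30039520-30039636), with pileups of 23 and 20 and percentiles of 19.7 and 11.3. Of the dKO sites near those ranks 24.6% and 34.0% had no WT site. The first held the Ets core on each strand, 6 and 75 bp from the summit, and the second held none of the 6 motifs.

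*Dtx1* encodes Deltex1, a ubiquitin ligase that Notch signalling induces and that in turn modulates it. Its window (gene body chr5:121130211-121161936, minus strand) had 7 WT and 6 dKO sites, of which 5 were shared. The site in intron 3 at 26.07 kb (chr5:121135743-121136004) had a WT pileup of 108, a fold enrichment of 13.8 and percentile 85.7, the highest rank of the 11 WT-only sites. Only 4.78% of the WT sites near that rank had no dKO site. Scaled to the depth of the dKO pool its pileup would be 80.1, and 73.0 with the median ratio of shared sites, where 23.5 is needed for a fold enrichment of 4. The dKO list held no peak there, and since it lists called peaks only, the dKO pileup at the site is not known. The sequence printed above holds the Rbpj core on each strand, 21 and 22 bp from the summit on either side of it, and none of the other 5 motifs.

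The second WT-only site of *Dtx1* lay upstream, at -2.57 kb (chr5:121164375-121164568), with a pileup of 74, a fold enrichment of 10.8 and percentile 68.9. Of the WT sites near that rank 11.8% had no dKO site, and the pileup at the dKO depth would be 54.9, where 20.7 is needed. It held 1 CACCTG E-box, 48 bp from the summit. The *Dtx1* promoter site at 0.25 kb (WT chr5:121161622-121161811) was shared, with pileups of 59 and 28, percentiles of 48.7 and 33.0 and a ratio of 0.640 (0.393 to 1.02). The site in intron 2 at 14.83 kb (WT chr5:121146937-121147215) had pileups of 58 and 27 and percentiles of 60.9 and 30.6, and its difference of -30.3 points was the most negative of the 29 shared sites, with a ratio of 0.628 (0.382 to 1.01). Both intervals included 1, and both included 0.912, the median ratio of all shared sites. The intron 2 site held the Tcf/Lef core, 80 bp from the summit, and a CACCTG E-box.

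The dKO-only site of *Dtx1* also lay in intron 3, at 23.23 kb (chr5:121138565-121138756), with a pileup of 22 and percentile 15.4. It overlapped the WT peak with a pileup of 27 and a fold enrichment of 3.52 that missed the criteria, so it was a difference in passing them and not in the presence of a peak. Within 100 bp of its summit it held the Rbpj core at 2 places, 9 and 56 bp away, and also a CACCTG E-box and a Runx core, so the Rbpj core was not particular to the WT-only site of this intron. The 3 shared sites past the 3′ end of *Dtx1* lay in or at the neighbour *Rasal1*. The one at 34.13 kb (WT chr5:121127679-121127858) stood at percentile 41.7 in WT and 67.9 in dKO, with pileups of 52 and 47 and a ratio of 1.22 (0.804 to 1.84). The one at 38.11 kb had pileups of 58 and 43 and percentiles of 55.3 and 59.9, and the one at 63.04 kb, at the main *Rasal1* promoter, had pileups of 84 and 45 and percentiles of 74.98 and 66.2.

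**Figure D3:**
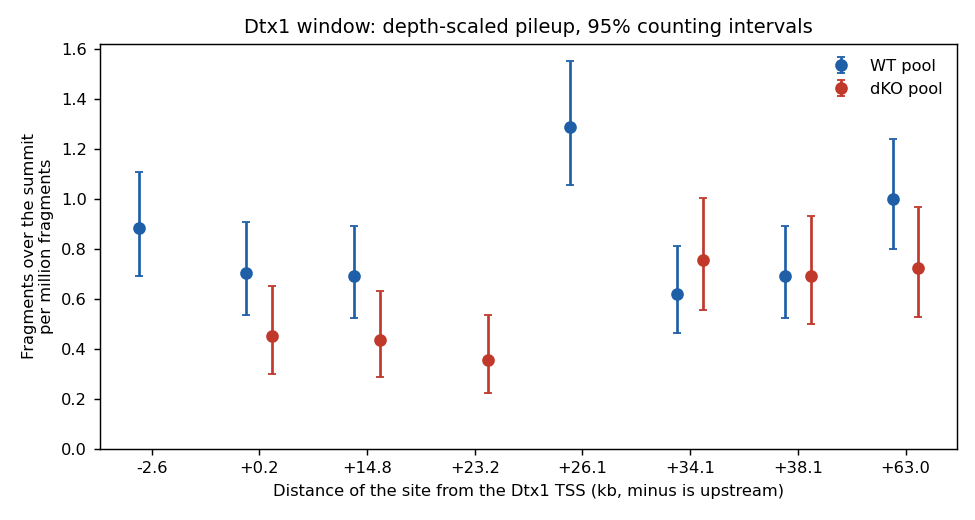
Pileup per 1000000 fragments of the pool (y axis, 95% Poisson intervals for counting error only) at each ChrAcc site of the *Dtx1* window (x axis, kb from the TSS), in WT (blue) and dKO (red); a missing point means that the list had no ChrAcc site there, not a value of 0. The WT-only site at 26.07 kb was the highest, at 1.29 (1.06 to 1.55), and the intervals of both pools overlapped at the 5 shared sites.

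*Ptcra*, the pre-TCR α gene, had no site at its promoter or in its body in either list (chr17:46893176-46900542, minus strand). All 6 sites of its window were shared and lay at promoters of its neighbours *Pex6*, *Cnpy3*, *2310039H08Rik* and *Rpl7l1*. The strongest were those of *Cnpy3* at 11.29 kb (pileups 139 and 99, percentiles 94.2 and 98.0) and *Rpl7l1* at -19.07 kb (109 and 70, percentiles 94.5 and 95.9). The largest shifts were at the second *Rpl7l1* site, at -19.59 kb, which went from percentile 62.5 to 78.3, and at *2310039H08Rik*, at -9.19 kb, which went from 61.7 to 45.9. No site of the window lay outside these promoters.

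The *Rag1* and *Rag2* genes, which stand tail to tail (chr2:101478439-101489658 and chr2:101464875-101472685), likewise had no site at their promoters or in their bodies in either list. WT cells had a site between genes at -15.97 kb of *Rag1* (chr2:101505559-101505676), with a pileup of 45, a fold enrichment of 8.55 and percentile 50.9. Of WT sites near that rank 24.3% had no dKO site, and the pileup at the dKO depth would be 33.4, where 16.0 is needed. It held 1 CAGCTG E-box, 73 bp from the summit, and lay 13.0 kb from the nearest TSS, that of *Traf6*. The other WT-only site, in intron 1 of *B230118H07Rik* at 33.42 kb (chr2:101456143-101456287), had a pileup of 21 and percentile 1.19, and would have missed the criteria at the dKO depth (15.6 where 16.0 is needed). The shared site at the *Traf6* promoter, at -28.87 kb, had pileups of 87 and 49 and went from percentile 74.3 to 55.9. Its ratio was 0.759 (0.524 to 1.09), and the interval included 1.

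*Tcf3*, the E2A gene, had the same 6 sites in both lists (gene body chr10:79872259-79896392, minus strand). Its promoter site at -0.50 kb (WT chr10:79896423-79897003) had pileups of 122 and 71 and stood at percentiles 82.7 and 84.2, and the sign of this small difference turned with the measure that was ranked. The ratio was 0.785 (0.577 to 1.06). The site held the Rbpj core in both lists. The strongest sites of the window were promoters of neighbours, *Mbd3* at 33.94 kb (pileups 225 and 144, percentiles 92.1 and 97.2) and *Uqcr11* at 26.79 kb (121 and 62, percentiles 96.3 and 91.4). The site between genes at 57.30 kb showed the largest shift here, from percentile 67.1 to 40.9, with pileups of 59 and 31. Its ratio was 0.708 (0.443 to 1.11), and the interval included 1. The upstream site at -12.76 kb, which held a CACCTG E-box, went from 49.2 to 38.2, with pileups of 44 and 30.

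*Tcf12*, the HEB gene, spans the longest body of the 10 (chr9:71692059-71959626, minus strand) and had 4 WT and 2 dKO sites. The promoter site at -0.07 kb (WT chr9:71959601-71959741) was weak in both lists, with pileups of 30 and 21 and percentiles of 22.1 and 14.1. The shared site in intron 3 at 14.52 kb (WT chr9:71945007-71945185) ranked higher in dKO, at percentile 53.8 against 35.2 in WT, with pileups of 40 and 41 and a ratio of 1.38 (0.872 to 2.19), and the interval included 1. Its sequence above holds the Tcf/Lef core 45 bp from the summit, and closer to it a CAGCTG E-box and a Runx core, 5 and 6 bp away. Both WT-only sites were weak: 1 at -21.74 kb (chr9:71981308-71981412, pileup 26, percentile 13.2) and 1 in intron 3 at 11.33 kb (chr9:71948272-71948409, pileup 22, percentile 2.17). The second would have missed the criteria at the dKO depth, with 16.3 where 16.4 is needed.

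Over the 29 shared sites, 13 ranked higher in dKO and 16 ranked lower, where 41.2% of all shared sites ranked higher and 58.7% lower. The median difference (dKO minus WT) was -3.54 percentile points, with quartiles of -13.8 and 4.56 and a range of -30.3 to 29.5. Over all 20533 shared sites the median was -2.56 (quartiles -12.7 and 5.89). The median near the 10 genes turned to 3.07 when a fold enrichment of at least 8 was required. The depth-scaled pileup ratio had a median of 0.863 (quartiles 0.749 and 0.961), against 0.912 (0.781 and 1.08) over all shared sites. Only 2 of the 29 ratios had an interval that left out 1, at *Mbd3* 34.67 kb from the *Tcf3* TSS (0.726, 0.535 to 0.978) and at *Uqcr11* (0.691, 0.5003 to 0.946), and both of these included 0.912. The most negative differences were at *Dtx1* intron 2, *Tcf3* 57.30 kb and *Traf6*, and the most positive at *Notch1* -62.61 kb, *Dtx1* 34.13 kb and *Tcf12* intron 3.

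**Figure D4:**
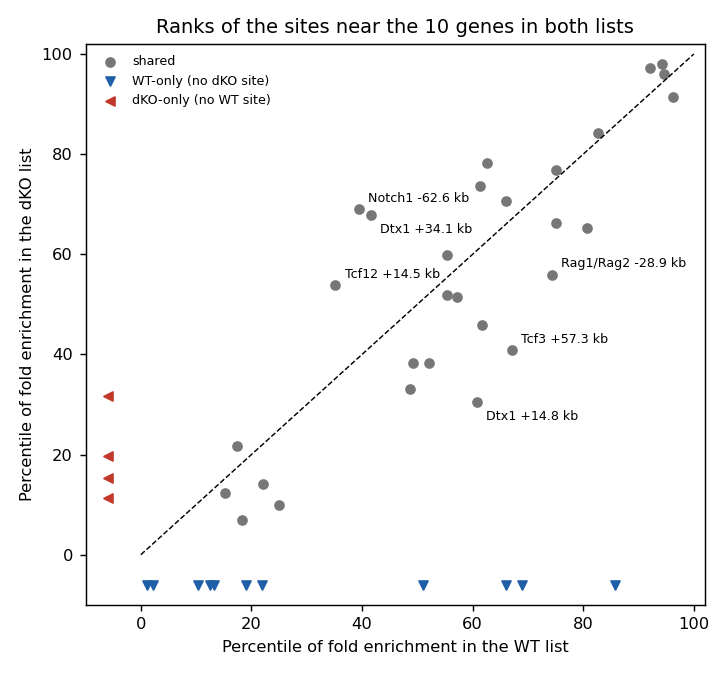
Percentile of fold enrichment in the WT list (x axis) and the dKO list (y axis) of each site near the 10 genes; the dashed line marks equal percentiles, and triangles outside the axes' 0 mark sites found in 1 list only. Of the 29 shared sites (grey) 13 lie above the line and 16 below it, and 4 of the 11 WT-only sites (blue) lie above percentile 50, where the 4 dKO-only sites (red) reach 31.6 at most.

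By position, 22 of the 44 sites lay within 1 kb of an annotated TSS, but only 7 of these were at a promoter of 1 of the 10 genes. Among shared sites 19 of 29 were at a promoter, against 3 of the 11 WT-only sites (27.3%, 9.75 to 56.6) and 0 of the 4 dKO-only sites (upper Wilson limit 49.0%). Over the whole lists the promoter shares were in the same order, at 45.5% for shared, 22.7% for WT-only and 13.0% for dKO-only sites. Sites in introns or exons were 6 of the shared, 4 of the WT-only and 2 of the dKO-only sites. Their shares over the whole lists were not computed, so these counts cannot be set against a background. The WT sites near the 10 genes had a median GC content of 59.5% in the 201 bp around the summit, against 53.2% over all WT sites, and a median width of 188 bp, against 207 bp. In dKO the medians were 59.2% against 53.2% and 169 bp against 191 bp.

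The Tcf/Lef core ATCAAAG stood within 100 bp of the summit at 2 WT sites and the same 2 dKO sites, in *Dtx1* intron 2 and *Tcf12* intron 3. This was 5.0% of the WT sites, against 3.81% of all WT sites, and 6.06% of the dKO sites, against 2.42% of all dKO sites. Both were shared, and their rank differences had opposite signs. None of the 11 WT-only sites held the core. The Rbpj core TGGGAA was found at 6 WT sites (15%, against 13.8% of all) and 7 dKO sites (21.2%, against 13.9%, with an interval of 10.7 to 37.8). CAGCTG was found at 3 WT sites (7.5%, against 12.6%) and 3 dKO sites (9.09%, against 12.2%), and CACCTG at 6 WT sites (15%, against 16.0%) and 4 dKO sites (12.1%, against 15.2%). The Runx core TGTGGT was found at 8 WT (20.0%, against 21.8%) and 7 dKO sites (21.2%, against 23.2%), and the Ets core CAGGAAG at 5 of each (12.5%, against 18.2%, in WT and 15.2%, against 18.3%, in dKO). For each motif the share over all sites of the list fell inside the Wilson interval of the share near the 10 genes.

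Promoters of 53 other genes, within 1 kb of an annotated TSS, were counted for context. Of these genes 7 were thymic stage genes, and the rest belonged to the Notch and E-protein pathways. A ChrAcc site was present in both lists at 27 of them, in the WT list alone at 4 and in neither at 22, and no gene had one in the dKO list alone. These were 50.9%, 7.55% and 41.5% of the 53, where over all 22380 protein-coding genes 41.0% had one in both lists, 3.85% in the WT list alone, 0.724% in the dKO list alone and 54.4% in neither. At the 27, the highest percentile was lower in dKO at 19 (70.4%) and higher at 8, with a median difference of -2.16 points, and over all protein-coding genes with a site in both lists 64.3% were lower, with a median of -3.39. The receptor genes *Notch2* (percentile 44.8 in WT, 42.0 in dKO) and *Notch4* (79.8 and 52.0) had a promoter site in both lists, and the ligand genes *Dll1*, *Dll3*, *Dll4*, *Jag1* and *Jag2* had none. The machinery that cuts and sugar-modifies the receptor was open at 11 of 11 genes in WT and 10 in dKO. *Adam10*, the protease of the cut at the cell surface, went from 83.6 to 54.2, and *Psenen*, a γ-secretase subunit, from 77.3 to 93.5. *Rfng*, a glycosyltransferase of Notch, was found in WT only, at 58.9.

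Of the 12 nuclear partners and turnover factors, 8 had a site in both lists, 4 higher and 4 lower in dKO, and the co-activator gene *Maml3* had 1 in WT only, at percentile 3.81. Of the 5 further Notch targets, *Nrarp* (43.2 and 35.7) and *Il2ra* (26.5 and 6.6) had a site in both lists, and *Hes5*, *Hey1* and *Heyl* had none. The E-protein inhibitor genes *Id2* (61.2 and 50.04) and *Id3* (65.7 and 66.1) had promoter sites in both lists, *Id1* in WT only, at 19.0, and *Id4* in neither. The further E-protein gene *Tcf4* (68.1 and 52.4) and the cofactor gene *Ldb1* (53.0 and 51.1) had sites in both lists. *Tal1*, *Lyl1*, *Lmo1*, *Lmo2* and *Cbfa2t3*, partners of E proteins in progenitors, had none. Among thymic stage genes, *Bcl11b*, a factor of T lineage commitment, was high in both lists (91.9 and 95.3), *Gata3* had a promoter site in WT only, at 14.8, and *Dntt*, *Erg*, *Hhex*, *Cd34* and *Kit* had none in either.

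**Figure D5:**
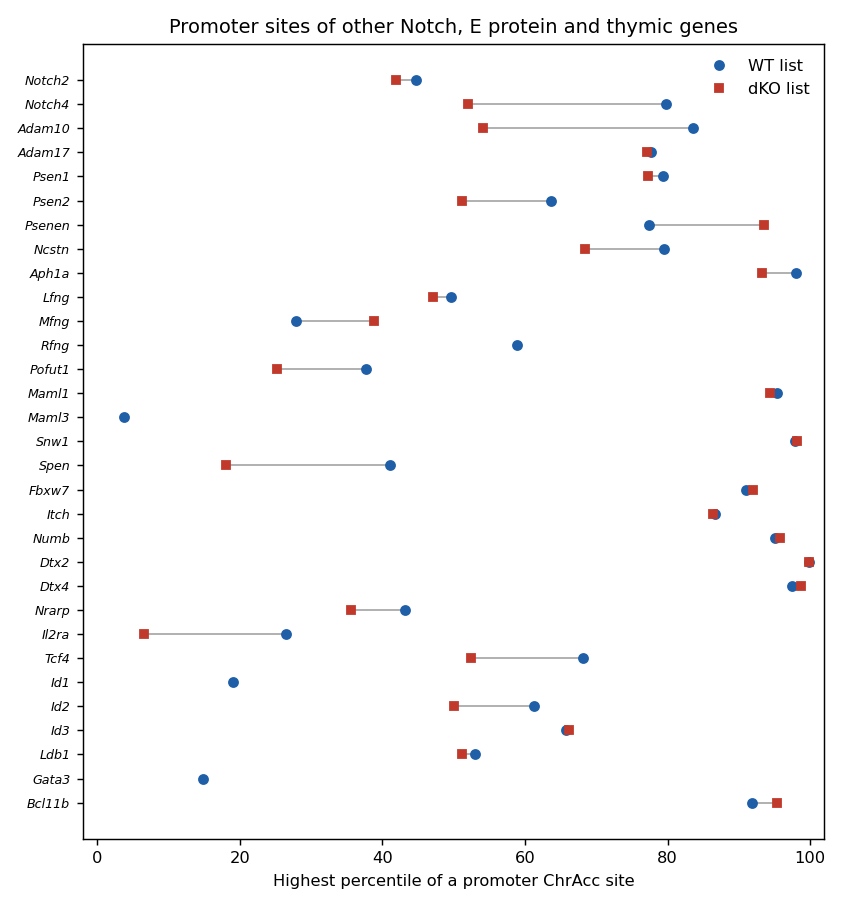
Highest percentile of fold enrichment of a promoter ChrAcc site (x axis) for each pathway or thymic stage gene with such a site in at least 1 list (y axis), in the WT list (blue circles) and the dKO list (red squares), joined by a line where both lists have one. *Adam10* and *Notch4* show the widest gaps with dKO lower, at 54.2 and 52.0, and *Psenen* the widest with dKO higher, at 93.5.

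The cell type was checked by promoter sites of marker genes. Of 10 T cell markers 9 had one in WT and 8 in dKO, and of 6 B cell and 3 NK cell markers none had one in either list. Of 5 myeloid markers with an annotated promoter, *Itgam* had one in WT only, at percentile 34.8. Over all protein-coding genes 54.4% had a promoter site in neither list, so its absence at a few markers says little. The authors measured *Eomes*, counted here among the NK cell markers, in CD8+ T cells too. The lists give called peaks and no coverage over the floxed exons, so the deletion itself could not be checked in them.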

How the data were processed

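Per the methods and file headers, the authors aligned reads to mm9 with Bowtie2 2.2.5, kept uniquely mapped reads, pooled the replicates of each genotype and called peaks on paired-end fragments with MACS2 2.1.1.20160309, using no control library and p under 1e-05. The header of each list names the same pool in 2 sort orders, so each fragment was read in both, and keeping 1 per position left 83923734 of 167847468 WT and 62242963 of 124485926 dKO fragments. The share of PCR duplicates cannot be read from these numbers. The deposited pileup is a signal, the coverage of the summit in fragments. As a fold enrichment, the authors deposited a ratio, that of pileup to local background with 1 added to each. Deposited −log10 p values test the pileup against the background, and the deposited −log10 q score adjusts them over all positions. Peak widths are in bp.

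Gene models were those of gencode for NCBIM37, the same assembly as mm9, and distances run to transcript 001, or to the longest where none has that name. *Tcf3* is the E2A gene on chromosome 10. A promoter is within 1 kb of any annotated TSS. The pileup needed at the dKO depth was computed from the WT local background scaled by the depth ratio. Described sites are those at a gene's promoter, the highest of each list, those in 1 list only, the largest shifts of each gene, and sites with a searched motif; 2 *Rasal1* sites and further sites of *Notch1* and *Rbpj* were added to complete a locus. The genes, lists and rules were chosen with earlier results of these data known. No column of per-sample values was left unused. Steps were tested on simulated data. Python 3.11.15, pandas 2.3.3, scipy 1.17.1, pysam 0.24.0, samtools 1.23.1 and matplotlib 3.10.9 were used.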

Additional observations from a re-analysis of the deposited data

How the results depend on the processing

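No paired analysis was possible because the replicates of each genotype were pooled before peaks were called, and for the same reason no replicate could be left out. Requiring a fold enrichment of at least 8 left 25 WT and 19 dKO sites and turned the median percentile difference at shared sites to 3.07, and the 20000 peaks with the highest −log10 p gave 6 WT-only sites, 2 dKO-only sites and a median of 2.82. A q under 1e-10 left 1 dKO-only site. A window of 10 kb gave 24 WT, 19 dKO, 7 WT-only and 2 dKO-only sites, and one of 100 kb gave 64 WT, 56 dKO and 7 dKO-only sites. These windows and thresholds take in other numbers of peaks by construction. Restricting WT-only sites to those that would pass at the dKO depth, with or without the median signal of shared sites, was chosen after seeing the data and left 9 each time. Ranked by −log10 p or by pileup, 49 of 58 differences at shared sites kept their sign. By −log10 p the differences at *Ptcra* 52.26 kb, *Ptcra* -19.07 kb, *Tcf3* 33.94 kb and *Tcf3* -0.50 kb turned to -3.70, -1.62, -0.185 and -5.60, and by pileup to -7.58, -5.01, -0.480 and -8.55, with *Dtx1* 38.11 kb at -0.707. The cause was not tested. A motif window of 50 bp instead of 100 bp on each side held no whole Tcf/Lef core at any of these sites in either list. In WT the core of *Tcf12* intron 3 ran past the edge of this narrower window. The lists as deposited, an overlap of 50% and a gap of up to 100 bp left the counts of sites in 1 list only between 11 and 13 in WT and at 3 or 4 in dKO.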
